A study of Mus musculus with 6 samples.

Results

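Long noncoding RNA (lncRNA) genes expressed in cancer-associated fibroblasts (CAFs) of mouse pancreatic tumours were compared between the GFP and the Tomato fraction of the same kind of tumour. Genes were selected on their annotated type and their mean level, not on the difference between the fractions: a gene was included if the GENCODE annotation of GRCm38 gave it a noncoding type (lincRNA, antisense, processed_transcript or bidirectional_promoter_lncRNA) and if its mean over the 6 libraries reached 3 CPM, that is counts scaled to a common library total. Of 49671 genes in the tables, 7465 had such a type and 127 reached that mean. Meg3, Rian and H19 were left out by name, and Mirg lay below the limit at 2.04 CPM, which gave 124 genes. These were 45 lincRNA, 45 processed_transcript, 29 antisense and 5 bidirectional_promoter_lncRNA genes. All 124 passed the expression filter of the test. The type is the annotation's and not a property measured here, since RefSeq lists 14 of the 106 genes it could be matched to as protein-coding (for D130058E05Rik and Gm38399 the entry carries the name of a neighbouring gene).

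FC1199 mouse pancreatic cancer cells had been placed in the pancreas of C57BL/6J hosts aged 8 weeks that carried Rosa-mTmG and Fabp4-Cre, and the tumours grew for 4 weeks, so that hosts were 12 weeks old. Rosa-mTmG cells make a Tomato protein until Cre acts in them or in a precursor, and GFP from then on, with Cre driven by the Fabp4 promoter. Podoplanin-positive cells were sorted by colour. The submitters describe the GFP fraction as CAFs derived from stellate cells, which are the lipid-storing mesenchymal cells of the pancreas, and the Tomato fraction as CAFs of another origin. Each fraction had 3 libraries, made from 150 ng of total RNA, and every host carried both transgenes. The labels do not say whether replicates came from separate animals, so p-values measure the spread between these samples, which may in part be technical.

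Library totals ran from 33378377 to 42154933 reads. Fibroblast genes were abundant in every library: the 10 markers listed summed to 128555 to 143344 CPM in GFP and 62531 to 95496 CPM in Tomato. Of these 10, 6 were called higher in GFP and 0 lower, with a median log2 fold change of 0.48. Sums over the markers of other cells also differed between the fractions. In GFP against Tomato, 15 macrophage and monocyte markers summed to 196 to 288 against 1129 to 2794 CPM (14 of 15 called lower in GFP), and 12 mesothelial markers to 193 to 228 against 1679 to 2058 CPM (11 of 12 lower). Neutrophil markers summed to 4.12 to 6.40 against 26.0 to 37.9 CPM (5 of 6 tested lower) and T and B lymphocyte markers to 0.996 to 1.38 against 5.02 to 9.07 CPM (1 of 1 tested lower). Lymphatic endothelial markers summed to 319 to 506 CPM in GFP and 26.1 to 81.7 CPM in Tomato (6 of 6 tested higher in GFP, Ccl21a at 0 in all libraries), and pan-endothelial markers to 329 to 385 against 110 to 184 CPM (7 of 10 higher). Epithelial and cancer cell markers summed to 93.3 to 119 against 304 to 390 CPM (4 of 10 tested lower). The part of these cells in the lncRNA differences below was not tested. In bulk libraries, fewer cells of a type and less RNA per cell cannot be told apart.

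lncRNAs are transcripts that are mostly spliced, capped and polyadenylated like messenger RNA but are not read into a long protein. Some stay in the nucleus and build or regulate structures there: Malat1 collects in nuclear speckles, Neat1 is the scaffold of paraspeckles, Xist coats the inactive X chromosome, and Kcnq1ot1 and Airn silence imprinted neighbours in cis. Others serve as precursors whose introns or exons release microRNAs or small nucleolar RNAs (snoRNAs), and many start beside a protein-coding gene and run away from it or across it.

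Among the genes with the largest differences were hosts of microRNAs, and their products show which small RNAs the loci encode. The following mature sequences are from RefSeq (GRCm38.p6), written 5′ to 3′, with the seed, bases 2 to 8, in capitals. They were matched by the position of the hairpin inside the lncRNA gene on the same strand. The mature RNAs themselves were not measured. Dnm3os holds miR-199a and miR-214, 1700016P03Rik holds miR-212 and miR-132, Mir99ahg holds miR-99a and let-7c, 3110039I08Rik holds miR-100, let-7a-2 and miR-125b, and Dleu2, Mir155hg and Mir22hg hold miR-16, miR-155 and miR-22.
mmu-miR-199a-5p: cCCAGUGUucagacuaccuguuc
mmu-miR-199a-3p: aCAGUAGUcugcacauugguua
mmu-miR-214-3p: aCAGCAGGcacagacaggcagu
mmu-miR-212-3p: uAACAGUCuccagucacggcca
mmu-miR-132-3p: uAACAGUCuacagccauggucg
mmu-miR-99a-5p: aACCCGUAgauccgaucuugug
mmu-miR-100-5p: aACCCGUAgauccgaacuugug
mmu-let-7c-5p: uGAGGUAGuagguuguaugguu
mmu-miR-125b-5p: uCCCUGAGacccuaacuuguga
mmu-miR-16-5p: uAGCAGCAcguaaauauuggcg
mmu-miR-155-5p: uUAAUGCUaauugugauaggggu
mmu-miR-22-3p: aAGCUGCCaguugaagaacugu
The seed is the stretch that pairs with most targets. Of let-7a-2 the table lists the 3p arm alone. Among the mature RNAs listed for these hosts, 2 seeds occurred more than once: miR-212-3p and miR-132-3p, from 1 host gene, share AACAGUC, and miR-99a-5p and miR-100-5p, from separate hosts, share ACCCGUA.

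Of the 124 genes, 31 passed as higher in GFP than in Tomato and 9 as lower by edgeR's quasi-likelihood test with Benjamini-Hochberg adjusted p under 0.05, and 84 did not pass. The adjustment ran over all 15608 genes tested, of which 28.9% were called, 13.1% higher and 15.7% lower. Among the 11257 protein-coding genes with a mean of at least 3 CPM, 30.3% were called, 15.1% higher and 15.1% lower, so the share of lncRNA genes called, 32.3%, was near the background. The split by direction was 25.0% higher and 7.26% lower, and no test of that split was made. The median log2 fold change was 0.19 over the lncRNA genes, 0.02 over the protein-coding genes of at least 3 CPM and 0.00 over all genes tested. Scaling moved the split: with library size alone in place of TMM it was 23 higher and 17 lower (median of all genes tested -0.16), and with offsets for transcript length and GC content 43 higher and 5 lower (median 0.12). All 40 called genes had no overlap between the fractions, and 22 others did not overlap either, which makes 62 of 124. Of all genes tested, 48.6% did not overlap (23.4% with every GFP library above and 25.2% with every one below), and of the protein-coding genes of at least 3 CPM, 51.3% (25.8% above and 25.5% below). Of the 62 lncRNA genes, 46 had every GFP library above and 16 every one below.

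**Figure D1:**
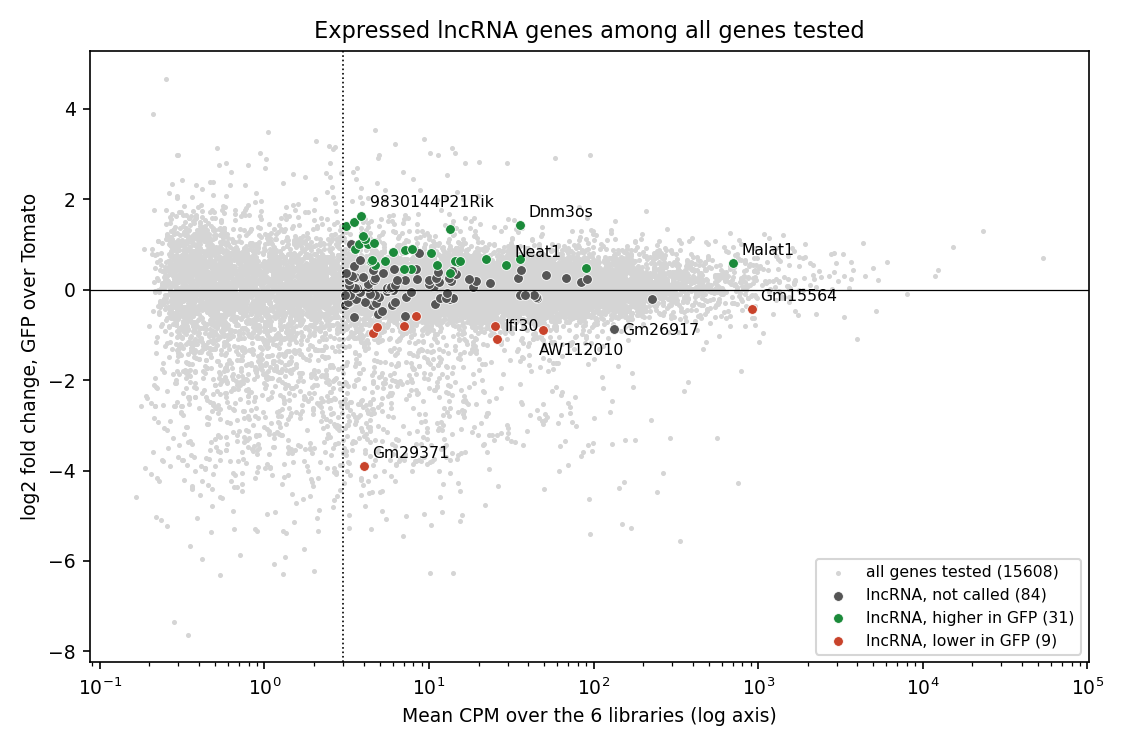
Each point is a gene, at its mean CPM over the 6 libraries (log axis) and its log2 fold change of GFP over Tomato. Grey points are all 15608 genes tested, coloured or dark points the 124 lncRNA genes, and the dotted line marks 3 CPM. The lncRNA genes lie between -3.90 and 1.64, with 31 higher in green and 9 lower in red.

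Most of these genes were scarce. Mean levels ran from 3.10 to 919 CPM with a median of 7.03 CPM, 75 genes lay under 10 CPM and 4 reached 100 CPM. The limit on the mean let in 9 genes through the GFP fraction alone (7 called higher) and 8 through Tomato alone (2 called lower). The first were 9830144P21Rik, B830012L14Rik, Zfp469, Gm26762, Gm38399, 4833422C13Rik and Gm17151, called, and Gm26835 and Gm37305, not called. Among the second, Gm29371 and AU020206 were called. The limit was on CPM before TMM scaling. It favours a difference in genes let in by the fraction in which they are high, so their calls and ranks are descriptions. Of the 107 genes above 3 CPM in both fractions, 24 were higher and 7 lower. Just inside the limit lay 1110038B12Rik, 2610035D17Rik and Gm37305 (3.10, 3.10 and 3.11 CPM), and just outside Gm28875, 8430429K09Rik and 9230114K14Rik (2.95, 2.95 and 2.92 CPM). By type, 15 lincRNA, 12 processed_transcript and 4 antisense genes were higher and 4, 3 and 2 were lower, with none of the 5 bidirectional_promoter_lncRNA genes called. Differences were mostly moderate: 11 genes had a log2 fold change above 1 and 2 had one below -1, and 12 of these 13 were called.

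Together the 124 genes held 0.337%, 0.356% and 0.340% of the reads in GFP replicates 1 to 3 and 0.366%, 0.361% and 0.399% in Tomato replicates 1 to 3. After TMM scaling 31 genes were higher in GFP. Without scaling, in the column for both strands, the sum of reads was lower in every GFP library. 2 transcripts, which differed in opposite directions, held much of it. Malat1 held 0.0805% ± 0.00269 (SD, n = 3) of reads in GFP and 0.0602% ± 0.00795 in Tomato, and Gm15564 held 0.0732% ± 0.0127 and 0.111% ± 0.0114. Without these 2 genes the shares were 0.191% ± 0.00221 and 0.205% ± 0.00546, again lower in every GFP library. The column for both strands kept only 23.1% to 25.1% of the Malat1 reads in the strand columns. With those columns summed, Malat1 was at 3232, 3185 and 3224 CPM in GFP and 2348, 2077 and 2582 CPM in Tomato, without TMM scaling. With these Malat1 reads in place of those kept, the full sum was no longer lower in every GFP library. Strand columns of the other genes were not put into that sum.

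**Figure D2:**
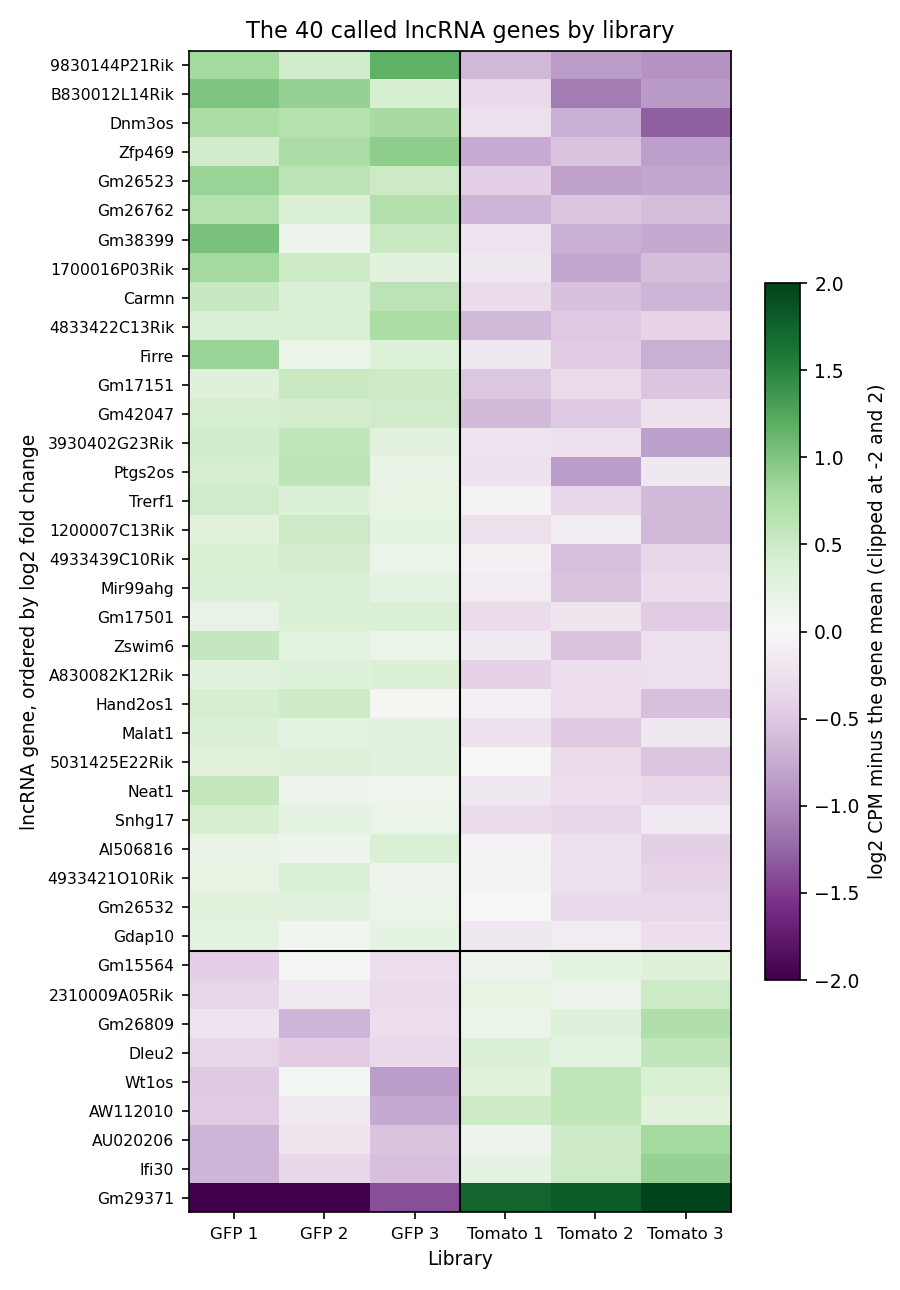
Colour gives log2 TMM-scaled CPM minus the gene's mean over the 6 libraries, for the 31 lncRNA genes called higher (top) and the 9 called lower (bottom) in GFP, ordered by log2 fold change from 1.64 (9830144P21Rik) to -3.90 (Gm29371). Gm29371 goes past the colour range, and Firre and Gm38399 are strongest in GFP replicate 1.

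Of the RNAs known to organise the nucleus, Malat1, Neat1 and Firre were called higher. Malat1 reached 897, 824 and 840 CPM in the GFP libraries and 588, 497 and 620 CPM in the Tomato libraries, all values here and below being TMM-scaled. Every GFP library lay above every Tomato library, with a log2 fold change of 0.59 ± 0.12 (SE, edgeR adjusted p = 0.00805). Neat1, at 42.9, 31.8 and 31.0 against 26.0, 24.0 and 22.6 CPM, did not overlap either, with GFP replicate 1 above the rest (0.54 ± 0.14, edgeR adjusted p = 0.0214). Its call was lost with length and GC offsets (0.24, adjusted p = 0.136). Per kilobase of exon, Malat1 had a mean of 101 CPM and Neat1 1.41 CPM. Summing the strand columns raised the Malat1 count 4.15 times and left that of Neat1 as it was, so these 2 values are not fully comparable. Firre, an X-linked RNA that tethers chromatin in the nucleus, was at 13.5, 8.39 and 9.50 CPM in GFP and 6.70, 5.46 and 4.62 CPM in Tomato (0.90 ± 0.21, edgeR adjusted p = 0.0159). Neither Neat1 nor Firre was called when GFP replicate 1 or Tomato replicate 2 was omitted.

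Xist was at 42.7, 40.9 and 29.8 CPM in GFP and 36.0, 28.9 and 30.3 CPM in Tomato. The ranges overlapped and the gene was not called (log2 fold change 0.25 ± 0.15, edgeR adjusted p = 0.228). Reads of the Y-linked Eif2s3y, Kdm5d and Uty were 0 in all 6 libraries, and Ddx3y had 2 reads in GFP replicate 2 alone. The imprinting RNAs did not pass the test: Kcnq1ot1 had 0.14 ± 0.19 and Airn 0.05 ± 0.16, both with overlapping ranges, whereas Igf2r, the gene Airn overlaps, was higher in GFP at 0.82 ± 0.17 (edgeR adjusted p = 0.00919). B830012L14Rik, which lies between Rian and Mirg in the same imprinted cluster of chromosome 12, was at 6.14, 5.70 and 4.09 CPM in GFP and 2.45, 1.44 and 1.68 CPM in Tomato (1.51 ± 0.25, edgeR adjusted p = 0.00389). Tug1, a long nuclear and cytoplasmic RNA, had 103, 92.0 and 99.6 against 86.8, 90.8 and 73.6 CPM, which did not overlap but was not called (0.23 ± 0.10, edgeR adjusted p = 0.123).

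Of the 10 listed nuclear and chromatin lncRNAs, 3 were higher, 1 was lower (Dleu2) and 6 did not pass, with a median log2 fold change of 0.24 against 0.00 over all genes tested. Proteins that work with these RNAs were read from lists as well. Among 27 paraspeckle protein genes, 3 were higher and none was lower, with 24 not passing. Safb2 (0.57 ± 0.17) and Ubap2l (0.35 ± 0.09) were among those higher. With library size alone this list gave 0 higher and 3 lower, and with length and GC offsets 8 and 0. Among 19 speckle protein genes, 4 were higher, with the splicing coactivators Srrm2 (0.70 ± 0.10) and Srrm1 (0.57 ± 0.09) leading, and 1 was lower, the kinase Dyrk3 (-1.49 ± 0.22). Library size alone gave 2 higher and 4 lower, and length and GC offsets 5 and 1. Among 21 genes for X inactivation and Xist binding, 5 were higher and none lower. Spen (0.65 ± 0.16), which belongs to the repressor arm of the Xist complex, was among those with the larger differences, and Ciz1 (0.39 ± 0.13) and Rlim (0.33 ± 0.09) had the smallest of the 5. Library size alone gave 2 higher and 3 lower, and length and GC offsets 2 and 0. The shares called in these 3 protein lists lie below the 28.9% called among all genes, and the 10 nuclear lncRNAs, 4 of them called, are too few to place against it.

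microRNA hosts differed in both directions. Dnm3os, the antisense transcript inside the dynamin gene Dnm3 that carries the miR-199a and miR-214 hairpins, is known from mesenchyme and fibrosis. It was at 54.2, 50.9 and 55.3 CPM in GFP and 26.8, 19.8 and 13.1 CPM in Tomato. GFP libraries were alike and Tomato libraries spread over a range of their own below them, with a log2 fold change of 1.42 ± 0.23 (edgeR adjusted p = 0.00437). Dnm3 itself, with means of 3.98 ± 0.695 and 1.88 ± 0.467 CPM (SD, n = 3), was higher by 1.08 ± 0.24.

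Carmn, the host of the miR-143 and miR-145 cluster of smooth muscle and related cells, was at 5.92, 5.16 and 6.31 CPM in GFP and 3.29, 2.75 and 2.55 CPM in Tomato. The fractions did not overlap (1.02 ± 0.17, edgeR adjusted p = 0.00427). Mir99ahg stood at 19.2, 19.6 and 17.8 against 13.9, 10.3 and 12.2 CPM, again without overlap (0.64 ± 0.13, edgeR adjusted p = 0.00907). The related cluster host 3110039I08Rik, which encodes the other bearer of the ACCCGUA seed, was at 18.7, 15.04 and 14.1 against 14.7, 9.68 and 11.6 CPM. Its ranges overlapped and it was not called (0.41, edgeR adjusted p = 0.108), while with the block (0.42, adjusted p = 0.0153) and without Tomato replicate 1 (adjusted p = 0.0239) it was.

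1700016P03Rik, the host of miR-212 and miR-132, was at 7.67, 6.21 and 5.24 CPM in GFP and 3.87, 2.57 and 2.93 CPM in Tomato, with no overlap (1.03 ± 0.21, edgeR adjusted p = 0.0102). It shares 641 exon bases with Ovca2 on the other strand, and with both strand columns summed, which takes in reads on the shared bases, the difference fell to 0.45 (adjusted p = 0.0381). Hic1, a gene beside it that encodes a transcriptional repressor known from quiescent mesenchymal cells, was higher in GFP by 0.47 ± 0.10.

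In the other direction, Dleu2, host of miR-16, was at 5.12, 4.81 and 5.24 CPM in GFP and 8.47, 7.90 and 9.99 CPM in Tomato (-0.80 ± 0.14, edgeR adjusted p = 0.00526). Mir155hg, whose microRNA is known from activated macrophages and lymphocytes, was at 8.91, 9.73 and 10.03 against 10.5, 11.8 and 13.6 CPM. All GFP libraries lay below the Tomato libraries, but the difference did not pass (-0.32 ± 0.13, edgeR adjusted p = 0.0966). It did with the block (-0.32, adjusted p = 0.0431), with library size alone (-0.49, adjusted p = 0.0363) and without Tomato replicate 1 (adjusted p = 0.0484), and with length and GC offsets the value was 0.09. Mir22hg overlapped between the fractions (0.33 ± 0.14, edgeR adjusted p = 0.102; adjusted p = 0.013 with the block, and 0.70, adjusted p = 0.00545 with length and GC offsets).

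By coordinates, 7 lncRNA genes held 12 hairpins, and 3 of the 7 were higher and 1 lower, beside 13.1% and 15.7% of all genes tested. So few genes cannot be placed against these shares. Carmn was matched by name alone. Of 16 tested genes that process or act with microRNAs, 5 were higher and none lower, beside the 28.9% called in all. Tnrc6c (0.74 ± 0.16) and Dicer1 (0.67 ± 0.18), a silencing scaffold and the enzyme that cuts hairpins, had the largest differences, and Tnrc6b (0.63 ± 0.11) and Ago3 (0.45 ± 0.12) the smallest among those called. With library size alone, 4 of this list were higher and 1 was lower.

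**Figure D3:**
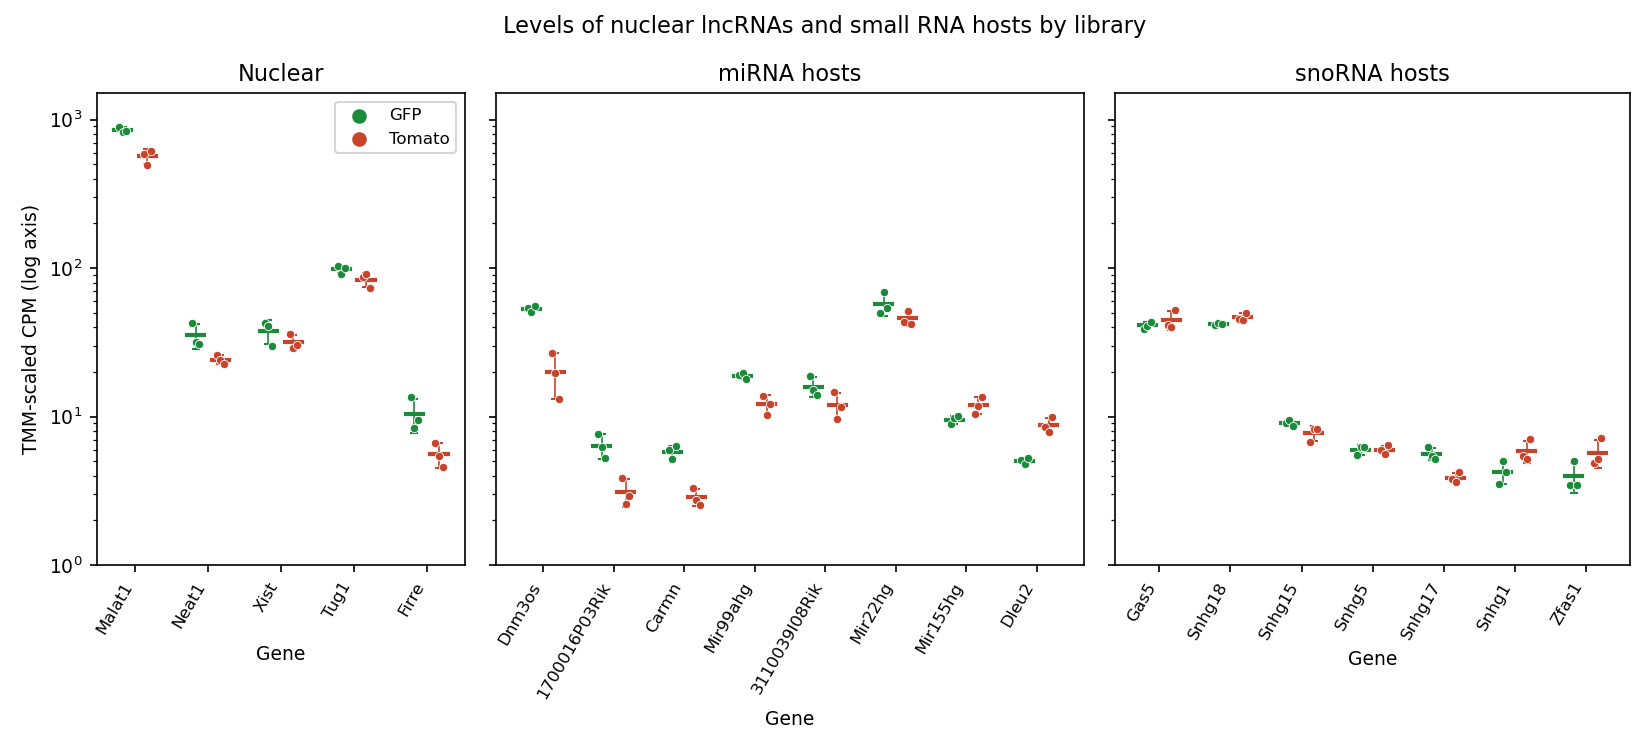
TMM-scaled CPM (log axis) of nuclear lncRNAs, microRNA hosts and snoRNA hosts. Points are libraries, 3 per fraction, bars are means and whiskers SD. Malat1, Firre, Dnm3os, Carmn and Mir99ahg show GFP above Tomato without overlap, Dleu2 shows the reverse, and Gas5 and Snhg5 overlap.

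Hosts of snoRNAs, the guides of ribosomal RNA modification, mostly did not pass the test. These genes are spliced to release snoRNAs from introns, and their exons are largely removed by nonsense-mediated decay. Of 11 genes that hold snoRNA genes on the same strand, 1 was higher, none was lower and 10 did not pass, where 13.1% of all genes tested were higher and 15.7% lower. Among the 11, 8 had a negative log2 fold change, and the median was -0.15. Gas5, which holds 9 snoRNA genes and binds the glucocorticoid receptor, was at 39.2, 40.9 and 43.3 CPM in GFP and 41.4, 40.4 and 52.4 CPM in Tomato (-0.12 ± 0.12, edgeR adjusted p = 0.461). Snhg5 was nearly equal (6.01 ± 0.444 and 5.99 ± 0.4004 CPM, mean ± SD, n = 3). Snhg1, with 8 snoRNA genes, lay below in every GFP library (3.53, 5.01 and 4.26 against 5.46, 5.20 and 7.03 CPM) without being called (-0.47 ± 0.19, edgeR adjusted p = 0.0984), and Zfas1 had -0.53 ± 0.22 with overlap.

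Snhg17 was the host that rose, at 6.22, 5.46 and 5.21 against 3.78, 3.63 and 4.21 CPM (0.54 ± 0.16, edgeR adjusted p = 0.0325). That call was lost when any of GFP replicates 1, 2 or 3 or Tomato replicates 1 or 2 was left out. The direction of the hosts depended on scaling. Library size alone gave 0 higher and 4 lower with a median of -0.32, and length and GC offsets gave 4 higher and 0 lower with a median of 0.18. The snoRNP proteins, which assemble on these RNAs, had 6 of 16 genes lower and none higher, beside 15.7% and 13.1% of all genes tested, among them Nop10 (-0.59 ± 0.14), Znhit3 (-0.57 ± 0.13), Ruvbl2 (-0.52 ± 0.14) and Snu13 (-0.37 ± 0.11), and with length and GC offsets 1 higher and 2 lower. Of the nonsense-mediated decay factors, 4 of 16 were higher, led by Nbas (0.63 ± 0.14) and Smg1 (0.46 ± 0.13), and Magoh was lower (-0.51 ± 0.13), which is near the 28.9% called in all. Library size alone gave 1 higher and 1 lower, and length and GC offsets 3 and 0. Of 19 nuclear RNA decay factors, Zfc3h1 was higher (0.74 ± 0.09) and 4 were lower, from C1d (-0.54 ± 0.11) and Exosc5 (-0.45 ± 0.14) to Exosc8 (-0.28 ± 0.09). That list gave 1 higher and 8 lower with library size alone, and 2 and 2 with length and GC offsets.

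Among lncRNAs linked to p53, growth and the cell cycle, Neat1 was higher, Dleu2 was lower, and Gas5 and Pvt1 did not pass. Pvt1, the neighbour of Myc, had 5.50 ± 0.461 CPM in GFP and 5.63 ± 0.485 CPM in Tomato, and Myc itself 0.55 ± 0.25 on the log2 scale (edgeR adjusted p = 0.139). Of 20 protein-coding p53 targets, 4 were higher, with Gdf15 (0.92 ± 0.16) and Zmat3 (0.76 ± 0.12) in front. The other 2 called were lower, Perp (-3.80 ± 0.23), a desmosome protein of epithelia, and the death receptor Fas (-0.66 ± 0.10). The 6 called of 20 are near the 28.9% called in all. Library size alone gave 3 higher and 3 lower, and length and GC offsets 8 and 1.

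9 genes were lower in GFP. Gm29371, an uncharacterised lincRNA at chr1:87080171-87096418 on the plus strand (GRCm38), had the largest difference of all 124, as a description, since it reached the 3 CPM limit through Tomato alone, the fraction in which it is high. It was at 0.323, 0.418 and 0.676 CPM in GFP, or 12, 14 and 24 reads, and at 5.83, 6.18 and 9.23 CPM in Tomato, or 250, 240 and 340 reads. The log2 fold change was -3.90 ± 0.31 (edgeR adjusted p = 0.000146). Ifi30, a lysosomal thiol reductase of antigen-presenting cells that RefSeq lists as protein-coding, followed at 14.6, 17.9 and 15.5 against 27.0, 32.7 and 42.5 CPM (-1.09 ± 0.17, edgeR adjusted p = 0.00278).

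AW112010, an interferon-induced transcript of macrophages and lymphocytes, was at 33.3, 41.3 and 27.0 CPM in GFP and 64.2, 69.2 and 55.9 CPM in Tomato, with no overlap (-0.90 ± 0.16, edgeR adjusted p = 0.00467; -0.45, adjusted p = 0.0694 with length and GC offsets). AU020206, at 3.02 ± 0.523 and 5.85 ± 1.35 CPM, had -0.95 ± 0.22 (edgeR adjusted p = 0.0147), and 3 of the fits that each omitted a library (GFP replicates 1 and 3, Tomato replicate 2) did not call it. Summed macrophage markers moved with these 4 genes (196 to 288 CPM in GFP against 1129 to 2794 CPM in Tomato). So did mesothelial markers (193 to 228 against 1679 to 2058 CPM), and those of neutrophils, lymphocytes and epithelial cells. The part of any of these cells was not tested. Of the 7 listed lncRNAs associated with macrophages or lymphocytes, 2 were lower (AW112010 and AU020206), 2 were higher (Ptgs2os and AI506816) and 3 did not pass, with a median of -0.19. These 7 are too few to place against the 13.1% higher and 15.7% lower of all genes tested. AI506816, at 102, 97.8 and 116 against 85.1, 75.2 and 66.2 CPM, had 0.48 ± 0.12 (edgeR adjusted p = 0.0174) and lost its call without GFP replicate 3 or Tomato replicate 2.

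Wt1os runs away from Wt1, a transcription factor gene of mesothelium and stellate cells, on the other strand. It was at 3.20, 4.63 and 2.48 CPM in GFP and 5.44, 6.82 and 5.87 CPM in Tomato (-0.81 ± 0.23, edgeR adjusted p = 0.0324), and the call did not survive omission of GFP replicate 1 or 3 or of Tomato replicate 2, nor adjustment with length and GC offsets (-0.62, adjusted p = 0.0756). Wt1 was at 103 ± 16.2 and 106 ± 4.35 CPM, with a log2 fold change of -0.03 ± 0.12. Summed mesothelial markers were 193 to 228 CPM in GFP and 1679 to 2058 CPM in Tomato, and their part was not tested. Wt1 is itself among these markers, so its level is included in both sums.

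In the column for both strands, the most abundant gene was Gm15564, at 667, 922 and 736 CPM in GFP and 977, 1042 and 1108 CPM in Tomato. That column leaves out most Malat1 reads. With the strand columns summed, Malat1 was above it, at 2077 to 3232 CPM over the libraries without TMM scaling. The Gm15564 exon model of 821 bases gave 1119 CPM per kilobase. The fractions did not overlap, but the call rested on a narrow margin (-0.43 ± 0.14, edgeR adjusted p = 0.0486). Omitting GFP replicate 1 or 3, or Tomato replicate 2 or 3, ended it, and with length and GC offsets the value was 0.01 (adjusted p = 0.943). Gm26917, a lincRNA with a GC fraction of 0.691 at a locus known to hold a copy of the ribosomal RNA precursor, varied by replicate: 142, 82.6 and 56.3 CPM in GFP and 247, 128 and 134 CPM in Tomato. Replicate 1 was the highest in both fractions, the ranges overlapped, and the gene was not called (-0.86 ± 0.38, edgeR adjusted p = 0.132). It was called with the replicate block (-0.89, adjusted p = 0.000714) and without GFP replicate 1 (adjusted p = 0.0356). Cct6a, listed as processed_transcript but as protein-coding in RefSeq, followed Malat1 by mean CPM, at 208 ± 16.4 and 240 ± 34.3 CPM (-0.21 ± 0.12). Among the 10 most abundant genes were also 1700020I14Rik (0.26 ± 0.09, edgeR adjusted p = 0.0521; adjusted p = 0.0235 with the block) and Brip1os (0.18 ± 0.10). The genes of at least 10 CPM with values nearest 0 were 1810026B05Rik (0.06 ± 0.13), Gm20559 (-0.07 ± 0.15), Gm26782 (0.08 ± 0.13), Tmem134 (-0.11 ± 0.10) and Tmem250-ps (-0.12 ± 0.11). RefSeq lists Tmem134 and Tmem250-ps as protein-coding.

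Gt(ROSA)26Sor, the lncRNA of the locus into which the mTmG reporter was built, was singled out after its values were seen. It had 53, 138 and 202 reads in GFP replicates 1 to 3 and 19, 143 and 183 in Tomato replicates 1 to 3, or 1.43, 4.12 and 5.69 against 0.443, 3.68 and 4.97 CPM. Replicate 1 was far the lowest in both fractions, and the fractions overlapped (0.31 ± 0.78, edgeR adjusted p = 0.786).

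Many lncRNAs have a protein-coding gene close by, and 70 of the 124 shared exon bases with one or started within 5 kb of one. The neighbour was tested in 65 pairs, 43 with shared exon bases and 22 with near starts alone. Signs were equal in 35 pairs and opposite in 30, and the correlation of the fold changes was 0.25 over the 65 pairs and 0.31 over the 22 without shared bases, which is a description of genes that share libraries and in part reads. Of the 17 called lncRNAs with a tested neighbour, the neighbour was called the same way for 8, the other way for 3, and not called for 6. For the 48 lncRNAs not called, 10 neighbours were called. Of all genes tested, 28.9% were called, 13.1% higher and 15.7% lower. No test of these counts was made.

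**Figure D4:**
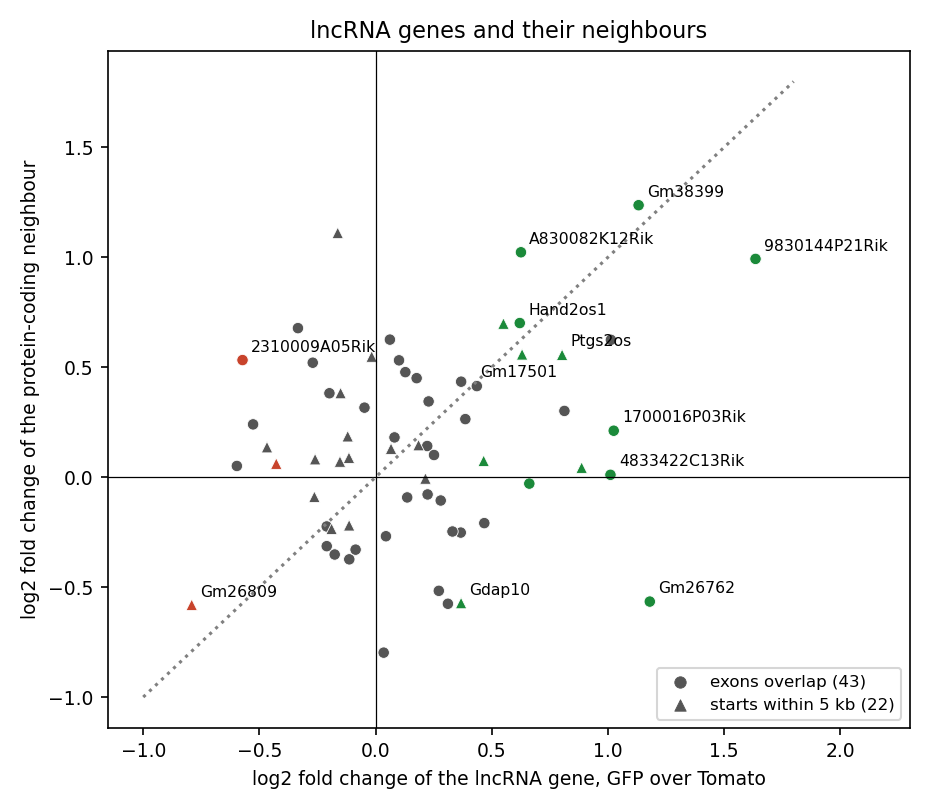
log2 fold change of GFP over Tomato of 65 lncRNA genes (horizontal) and of the protein-coding neighbour (vertical). Circles share exon bases, triangles start within 5 kb, green and red mark lncRNA genes called higher and lower, and the dotted line marks equal values. Gm38399, 9830144P21Rik, Hand2os1 and Ptgs2os lie with their neighbours above 0, and Gm26762 and Gdap10 lie below the horizontal line.

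8 pairs were called in the same direction. Ptgs2os, which starts 68 bases from Ptgs2 and runs away from it, was at 13.3, 15.1 and 11.2 CPM in GFP and 8.40, 5.46 and 8.82 CPM in Tomato (0.80 ± 0.20, edgeR adjusted p = 0.019). Ptgs2, the inducible enzyme of prostaglandin synthesis, was at 2238, 1748 and 1540 against 1413, 1173 and 1170 CPM (0.56 ± 0.16, edgeR adjusted p = 0.0335). Neither gene overlapped between the fractions, and the lncRNA lost its call without GFP replicate 1 or GFP replicate 2. Hand2os1 lies on the other strand from the mesenchymal transcription factor gene Hand2. In GENCODE the 2 share 461 exon bases and start 3250 bases apart. Hand2os1 was at 19.4, 20.5 and 14.9 against 13.8, 11.9 and 9.86 CPM (0.62 ± 0.17, edgeR adjusted p = 0.0249). It was not called on omission of GFP replicate 1 or 2 or of Tomato replicate 2. Hand2 was at 13.5, 13.9 and 13.02 against 8.75, 8.13 and 7.98 CPM (0.70 ± 0.11). Gm17501 (6.03, 6.83 and 6.91 against 4.27, 4.63 and 3.86 CPM, 0.63 ± 0.15, not called without GFP replicate 2 or 3) starts 331 bases from Ccn1, a matricellular protein gene, which was at 2677, 2650 and 2459 against 2156, 1802 and 1327 CPM (0.56 ± 0.18).

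A830082K12Rik lies across the start of Nr2f1, an orphan nuclear receptor gene, and had 5.22, 5.46 and 5.61 against 3.29, 3.63 and 3.64 CPM (0.63 ± 0.15, edgeR adjusted p = 0.0161, lost without GFP replicate 3 or Tomato replicate 2), with Nr2f1 at 1.02 ± 0.26. 5031425E22Rik and the chromatin gene Kmt2e had 0.55 ± 0.14 and 0.70 ± 0.14, and 4 of the 6 fits that omit a library did not call the lncRNA (all but those without Tomato replicate 1 or 3). Antisense to the phosphate transporter gene Slc20a1 (0.99 ± 0.12), 9830144P21Rik, which reached the 3 CPM limit through GFP alone, had the highest log2 fold change of the set, at 5.90, 4.63 and 7.58 CPM in GFP and 2.17, 1.88 and 1.76 CPM in Tomato (1.64 ± 0.22, edgeR adjusted p = 0.00144). Gm38399 shares 134 exon bases with Nav1 on the same strand, so that reads of the 2 cannot be fully told apart, and the values were 1.13 ± 0.26 and 1.24 ± 0.22. Gm26809 and the RNA-binding protein gene Lsm8 were both lower (-0.79 ± 0.17 and -0.58 ± 0.15). Gm26523, a lincRNA inside the span of the mesenchymal homeobox gene Prrx1, was at 22.5, 19.3 and 17.7 against 9.24, 7.05 and 7.28 CPM (1.34 ± 0.15, edgeR adjusted p = 0.000635), with Prrx1 at 0.78 ± 0.14. Outside a near start or shared exon, it is not among the 65 pairs.

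Of the 3 listed lncRNAs at HOX and developmental loci, 2 were higher (Hand2os1 and A830082K12Rik) and 1 was lower (Wt1os), with a median of 0.62. They are too few to place against the 13.1% higher and 15.7% lower of all genes tested.

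Promoter sequence is shown for 2 of these pairs, whose genes both rose and start so close together in RefSeq (GRCm38.p6) that they share 1 stretch of DNA. The sequences are the 250 bases before the start of Ccn1 and of Hand2, on the strand of the protein-coding gene. In RefSeq, whose starts differ from those of GENCODE, Gm17501 starts 92 bases and Hand2os1 124 bases away on the other strand. Capitals mark matches on either strand to 4 motifs: TATAAA, the TATA box; TGACGT, the core of the cyclic AMP response element; GGAATG, a TEAD site; and CCAAT, the CCAAT box.
Ccn1, chr3:145649986-145650235, minus strand: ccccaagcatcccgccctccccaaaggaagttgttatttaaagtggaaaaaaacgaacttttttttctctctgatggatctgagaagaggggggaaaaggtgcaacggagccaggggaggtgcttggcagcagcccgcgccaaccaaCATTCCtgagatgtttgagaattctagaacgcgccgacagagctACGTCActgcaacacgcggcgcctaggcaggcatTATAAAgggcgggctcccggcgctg
Hand2, chr8:57320733-57320982, plus strand: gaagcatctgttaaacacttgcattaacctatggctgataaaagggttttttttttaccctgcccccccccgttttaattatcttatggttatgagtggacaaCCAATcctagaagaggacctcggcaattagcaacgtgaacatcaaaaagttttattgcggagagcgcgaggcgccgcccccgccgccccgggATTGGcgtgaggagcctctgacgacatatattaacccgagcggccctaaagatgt
The Ccn1 stretch held GGAATG at base 148, TGACGT at base 192 and TATAAA at base 226, and the Hand2 stretch held CCAAT at bases 104 and 196, counted from its 5′ end. Over windows of 250 bases before to 50 after the start, 91 of the 124 lncRNA genes could be matched. TGACGT was in 17.6% of them and in 7.64% of all 27025 promoters, GGAATG in 26.4% and 14.6%, CCAAT in 44.0% and 37.9%, and TATAAA in 16.5% and 14.2%. The windows also differed in base composition: the median ratio of observed to expected CpG was 0.77 for the lncRNA genes and 0.39 for all. A match is a description of letters and not a site.

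Counting bears on the antisense genes, since the libraries carried no strand information: the forward and reverse columns of each library agreed to a ratio of 1.002 to 1.006. Of the 124 genes, 74 shared exon bases with another gene. The column for both strands leaves out reads that lie under 2 genes, while the 2 strand columns summed take them in, which raised the count over 1.1 times for 30 genes, over 2 times for 12 and over 10 times for 3. Malat1 was among them. In the column for both strands it kept 23.1% to 25.1% of the reads it had in the strand columns (33333 of 136691 in GFP replicate 1). Gm37376, an unclassified gene on the other strand, covers only a short stretch of Malat1 (chr19:5801941-5802393). Gm37376 had 0 reads in the column for both strands in all 6 libraries. In the strand columns summed it had 103232 in GFP replicate 1. The level of Malat1 given above counts only the reads it kept, and its log2 fold change with strands summed was 0.62 (adjusted p = 0.00827).

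For 13 genes the log2 fold change moved by over 0.1 with the strand columns summed, and all 13 had a count raised over 1.1 times. Gm26762 changed sign. In the column for both strands it was at 6.00, 4.83 and 6.06 CPM in GFP and 2.36, 2.60 and 2.498 CPM in Tomato (1.18 ± 0.17, edgeR adjusted p = 0.00188). Summed, its count was 17.1 times larger and its value -0.51 (adjusted p = 0.0469), while Gpi1, the glycolytic gene it shares 741 exon bases with on the other strand, had -0.57 ± 0.16. 9830144P21Rik fell from 1.64 to 1.23, 4833422C13Rik, antisense to Ssbp2, from 1.01 to 0.73, and Gt(ROSA)26Sor from 0.31 to -0.09. Has2os, antisense to a hyaluronan synthase gene, went from 0.10 (adjusted p = 0.725) to 0.50 (adjusted p = 0.0338). Of the 50 genes with no shared exon bases, 17 were higher and 4 lower.

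**Figure D5:**
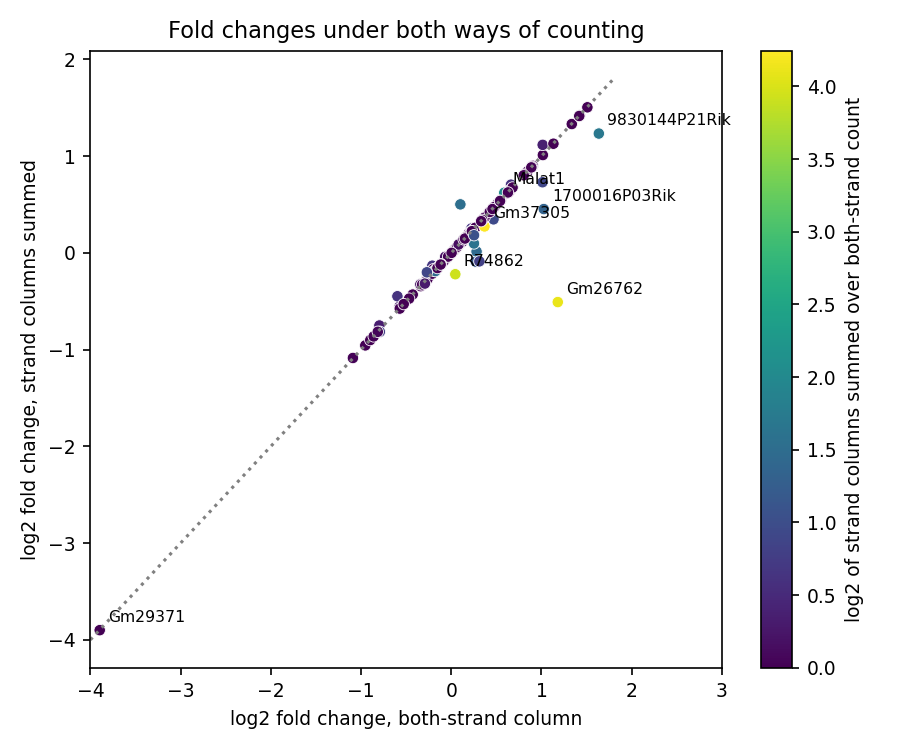
log2 fold change of GFP over Tomato of the 124 lncRNA genes from the column for both strands (horizontal) and from the 2 strand columns summed (vertical). Colour gives log2 of how many times larger the summed count was, and the dotted line marks equal values. Gm26762 lies at 1.18 and -0.51, and 13 genes moved by over 0.1.

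In 3 of the 17 pairs with a called lncRNA, both genes were called in opposite directions. Besides Gm26762 and Gpi1, Gdap10 was higher (0.37 ± 0.11, called in only 1 of the 6 fits that omit a library, and not with library size alone, adjusted p = 0.196) with Nampt, a gene of NAD synthesis, lower (-0.57 ± 0.12), and 2310009A05Rik was lower (-0.57 ± 0.15) with Pigb, a gene of glycolipid anchor synthesis on the other strand, higher (0.53 ± 0.15). Gdap10 overlaps the span of Nampt on the same strand, so reads of the 2 may not be fully told apart. 2310009A05Rik is listed in RefSeq as the protein-coding gene Pigbos1 and lost its call without GFP replicate 1 or GFP replicate 3. Without the 14 genes RefSeq lists as protein-coding, 27 of 110 were higher and 7 lower.

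The remaining called genes were all higher. Zfp469, annotated as a lincRNA but with a protein-coding RefSeq entry, had 3.93, 4.78 and 5.38 against 1.70, 1.96 and 1.60 CPM (1.42 ± 0.20). Gm17151 (0.89 ± 0.17), Gm42047 (0.89 ± 0.14), 3930402G23Rik (0.84 ± 0.19), Trerf1 (0.68 ± 0.15), 1200007C13Rik (0.67 ± 0.14), 4933439C10Rik (0.66 ± 0.18), Zswim6 (0.63 ± 0.15), 4933421O10Rik (0.47 ± 0.15) and Gm26532 (0.46 ± 0.14) completed them. Gm42047 was at 9.24, 9.34 and 9.58 CPM in GFP against 4.48, 4.94 and 5.81 CPM in Tomato. Of these 10, Zfp469, Gm17151, Gm42047 and 1200007C13Rik kept their calls when any 1 library was left out, and the other 6 did not. Zfp469 and Gm17151 had reached the 3 CPM limit through GFP alone, so their calls remain descriptions.

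Exon length went weakly with the difference over the 124 genes (Pearson's r of log2 length and log2 fold change 0.27, Spearman's rho 0.34), as over 15583 genes of all types with a length (0.17 and 0.28). The median exon length was 5003 bases for the 31 higher and 2981 bases for the 9 lower genes. These correlations are across genes that share the same 6 libraries.

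Leaving out 1 library at a time, 19 of the 40 calls held in each of the 6 fits, and 21 were lost in at least 1 fit. Among those that held were Dnm3os, Gm26523, Carmn, Dleu2, Ifi30, AW112010, Mir99ahg and Malat1. Gm29371, 9830144P21Rik and B830012L14Rik held as well. Gm29371 had reached the 3 CPM limit through Tomato alone and the other 2 through GFP alone, so their calls remain descriptions. Without GFP replicate 1 there were 18 higher and 6 lower genes, and without Tomato replicate 2 there were 17 and 7. Firre and Neat1 lost their calls in each of these 2 fits, as did Gm38399.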

How the data were processed

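RNA was measured in 6 libraries, 3 per fraction. The deposited tables hold raw read counts per gene, with a column for both strands and 1 per strand, per the file headers; the submitters' processing notes name Trim Galore 0.4.3, STAR 2.5.2b and GRCm38. The annotation release is not given in the sources used here; types and 1-based coordinates are from GENCODE M21 (49412 of 49671 identifiers matched). The unit of 1 read limits precision for genes near 3 CPM.

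The column for both strands was tested with edgeR 4.0.16 in R 4.3.3: quasi-likelihood F test, robust, two-sided, TMM, filterByExpr, no block, Benjamini-Hochberg over 15608 genes, threshold 0.05. Levels are TMM-scaled CPM and SEs derive from the F statistic. Alternatives changed scaling, filter, tool (DESeq2 1.42.0, limma 3.58.1), block, offsets, strand column and libraries.

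The genes and lists were chosen with earlier results of these data known. Named genes were the 10 most abundant, up to 12 called without overlap with the largest change in each direction, all in 6 lncRNA lists, the 5 nearest 0 among those of at least 10 CPM, 3 on each side of the 3 CPM limit, neighbours, and up to 2 called genes at each end of each protein list, of which 2 are not reported here. The other genes named, including 14 lncRNA genes, were chosen after their values were seen. Of the lncRNA lists, Snhg6 (-0.29 ± 0.18), Snhg15 (0.23 ± 0.13) and Gm14005 (-0.19 ± 0.15) were not called and are not described further.

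Whether equal replicate numbers pair libraries was checked by correlating deviations from group means. Equal numbers gave 0.403, 0.108 and 0.347 with a prior count of 2, and 0.391, 0.0960 and 0.332 with a prior count of 1, against -0.392 to 0.0360 for unequal numbers. The middle value lies at the limit of 0.1, and its side depends on the prior count. A prior count of 1 was run first, and 2 was chosen after that value and the block counts were seen. Pairing is thus not settled, and comes from the data and not the labels. Blocked values are given where they change a call. Besides the genes above, the block called 3 others by edgeR. 2900097C17Rik went from 0.47 (adjusted p = 0.0674) to 0.48 (adjusted p = 0.0276). 9530082P21Rik stayed at 0.39 (adjusted p = 0.0865 and 0.0163). 2410006H16Rik went from -0.57 (adjusted p = 0.0742) to -0.54 (adjusted p = 0.0485).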

Additional observations from a re-analysis of the deposited data

How the results depend on the processing

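Against 31 higher and 9 lower lncRNA genes, library size alone gave 23 and 17 (1128 and 3851 over all genes tested, beside 2049 and 2456), length and GC offsets 43 and 5 (2880 and 1566), the same offsets with the replicate block 60 and 8 (4138 and 2061), a test against a fold of 1.5 gave 6 and 2, a threshold of 0.01 gave 13 and 4, a minimum of 5 CPM 19 higher, a minimum of 10 CPM 13 and 4, and genes with no shared exon bases 17 and 4. The replicate block alone, whose pairing is not settled, gave 43 and 13, and 3137 and 3256 over all genes tested; it kept all 40 calls and added 8 among the genes described. Leaving out 1 library gave 17 to 34 higher and 5 to 10 lower. RLE and upper quartile scaling, 2 other filters, DESeq2 (35 and 11), limma-voom (32 and 9) and each strand column stayed within 1.5 times. In the column for both strands, the share of reads without Malat1, Neat1 and Xist was 0.257% in GFP and 0.309% in Tomato. The order was the same as with them in that column.

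Over 72 described lncRNA genes and 1584 gene and setting combinations, 1394 kept their side of the threshold, 147 lost a call, 36 gained one and 7 reversed; 54 sign changes of genes not called in either setting are counted as kept. The reversed values were Gm15564 at 0.01 (0.012 with length and GC offsets, 0.00698 with the block added), Snhg18 at 0.24 with length and GC offsets and 0.24 with the block added (0.238 and 0.237), and Gm26762 at -0.48 in the forward column, -0.53 in the reverse column and -0.51 with both summed. The cause was not tested for the first 2. The summed columns and the set without RefSeq protein-coding genes (27 and 7) were chosen after seeing the data. Read counts are low for genes near 3 CPM, but calls lost on omission of 1 library were not limited to them. Gm15564, at a mean of 919 CPM, lost its call in 4 of the 6 fits that omit a library.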
